A study of Mus musculus with 4 samples.

Results

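The genes described here are the 36 aminoacyl-tRNA synthetases measured in mouse T-helper 17 cells, 20 cytosolic and 16 mitochondrial. They were chosen by name and function, with earlier results of these data known, from the 50600 genes listed in each library. All 36 symbols matched 1 gene each. Genes whose symbol ends in 2 are the mitochondrial enzymes. RNA was measured in 4 libraries of primary T-helper 17 cells of mouse strain C57BL/6NJ, a helper T cell that secretes interleukin-17, and the labels point to a differentiation protocol for CD4+ T cells. All 4 libraries form 1 group, biological replicates 1 to 4, and there was no second condition, so the comparisons are between genes within each library and between replicates. The labels give 1 donor identifier for all 4 and leave the age, the developmental stage and the sex open, and a tag of 16 hr in the file headers is not explained by them. The assay is labelled total RNA-seq, but the library protocol linked from the labels carries polyA+ RNA in its name. They do not say which replicates came from separate animals, so part of the spread between them may be technical.

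An aminoacyl-tRNA synthetase joins an amino acid to its matching tRNA, which carries it to the ribosome. The cytosol and the mitochondrion translate with separate ribosomes and mostly separate synthetases, both sets encoded in the nucleus, although glycine and lysine are charged in both places by products of the same genes, Gars and Kars. In the cytosol, part of the enzymes are held in a multi-tRNA synthetase complex by the scaffold proteins Aimp1, Aimp2 and Eef1e1, and activated T cells are known to raise amino acid uptake and protein synthesis.

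The libraries held 37025016, 24696730, 32766291 and 36798195 fragments in replicates 1 to 4, and between 0.684 and 0.699% of them fell on the 36 synthetases. Levels are given as TPM, the count of fragments over the summed exon length of a gene, scaled to 1000000 in each library. All 4 T cell markers and all 8 T-helper 17 markers looked at reached 1 TPM in every library, but at very different levels. The cytokine genes Il17f and Il17a were at 694 ± 73.6 and 20.02 ± 1.02 TPM (SD, n = 4), and the receptor genes Ccr6 and Il23r at 14.3 ± 1.97 and 2.14 ± 0.154. Of the defining genes of other cells, none of 3 B cell and none of 2 erythroid genes reached 1 TPM in every library. Of 4 myeloid genes 1, Cd68, did so, and of 4 genes of CD8 T and NK cells 1, Cd8b1. Their summed levels were 0.280 to 0.468 TPM (B cell), 3.93 to 6.31 TPM (myeloid) and 6.00 to 8.74 TPM (CD8 T and NK), and both erythroid genes had no fragment. The libraries fell into pairs by the sex-linked genes. Xist, transcribed from the inactive X, was at 186 and 161 TPM in replicates 1 and 2 and at 0.687 and 0.721 in replicates 3 and 4, while the Y-linked Ddx3y was at 0.442, 0.446, 88.6 and 83.2 TPM. A high Xist with a low Ddx3y in one pair and the reverse in the other does not match the single donor identifier, since it calls for at least 2 animals, of both sexes.

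All 36 synthetases reached 1 TPM in every library, against 44.8% of the 21764 protein-coding genes. At 10 TPM these were 34 of 36, the exceptions being Ears2 and Wars2, against 33.9%. At 100 TPM they were 19 of 20 cytosolic genes, all but Cars, and 0 of 16 mitochondrial ones, against 8.72%. Among protein-coding genes ranked by mean TPM, the cytosolic synthetases had a median percentile of 96.5 with a lowest of 85.9, and the mitochondrial ones a median of 78.0 with a lowest of 63.3. The fewest fragments of any member in any library were 235, for Fars2 in replicate 2, so counting limits no statement about detection here. In bulk RNA, fewer expressing cells and less RNA per cell cannot be told apart.

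Nars, which charges asparagine, was the highest synthetase, at 555, 575, 559.6 and 569.6 TPM in replicates 1 to 4. Gars, for glycine, followed at 437 ± 5.37 TPM (SD, n = 4 here and below) and Hars, for histidine, at 380.2 ± 6.86. The ranges of these 3 over the libraries did not overlap each other or that of Kars, the lysine enzyme, at 354 ± 5.52. Kars overlapped with the isoleucine enzyme Iars at 354 ± 11.8. Rars for arginine was at 295, 291, 318 and 296 TPM, Tars for threonine at 291 ± 10.7 and Mars for methionine at 290.4 ± 8.02 TPM, each overlapping its neighbour in the order. Farsb, the beta subunit for phenylalanine, at 238 ± 2.94, Lars for leucine at 233 ± 3.63 and Vars for valine at 232 ± 5.73 TPM formed another overlapping run. Of the 19 steps down the cytosolic order, 13 had no overlap. Below Vars came Dars for aspartate at 181 ± 5.65, Wars for tryptophan at 164 ± 2.68, Sars for serine at 151 ± 6.51 and Farsa, the alpha subunit for phenylalanine, at 138 ± 2.30 TPM. Aars for alanine at 116 ± 3.05 overlapped with Eprs, which charges glutamate and proline in 1 protein, at 115 ± 2.79, and Qars for glutamine at 109 ± 2.47 and Yars for tyrosine at 103 ± 2.59 followed. Cars, for cysteine, was the lowest cytosolic gene, at 61.8, 60.3, 62.7 and 59.6 TPM. The highest mean was 9.25 times the lowest among cytosolic genes.

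The mitochondrial order was led by the leucine enzyme Lars2, at 118, 103, 72.3 and 63.6 TPM in replicates 1 to 4, whose values moved more than those of any other synthetase. Rars2 for arginine was at 67.2 ± 3.78 TPM and Yars2 for tyrosine at 62.0 ± 1.47, and the ranges of these leading genes overlapped from each one to the next. They were also the 3 mitochondrial genes with a value at or above the lowest cytosolic value, 59.6 TPM of Cars. A middle run held Iars2 at 45.8 ± 0.608, Tars2 at 43.4 ± 2.61, Aars2 at 38.6 ± 0.846 and Hars2 at 37.5 ± 1.71 TPM. Vars2 at 33.2 ± 1.42 and Sars2 at 31.5 ± 0.889 TPM closed it. After a gap came Pars2 for proline at 19.1 ± 1.57, Cars2 at 18.1 ± 1.08, Mars2 at 16.6 ± 0.776 and Fars2 at 14.6 ± 1.67 TPM, each overlapping the next. Nars2 stood alone at 11.7 ± 0.427 TPM. Wars2 was at 7.65, 8.24, 7.86 and 6.88 TPM and Ears2, for glutamate, at 8.08, 7.39, 7.02 and 7.21 TPM, and these lowest members could not be ordered. Of 15 steps, 10 had overlapping ranges, and the highest mean was 12.01 times the lowest.

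**Figure D1:**
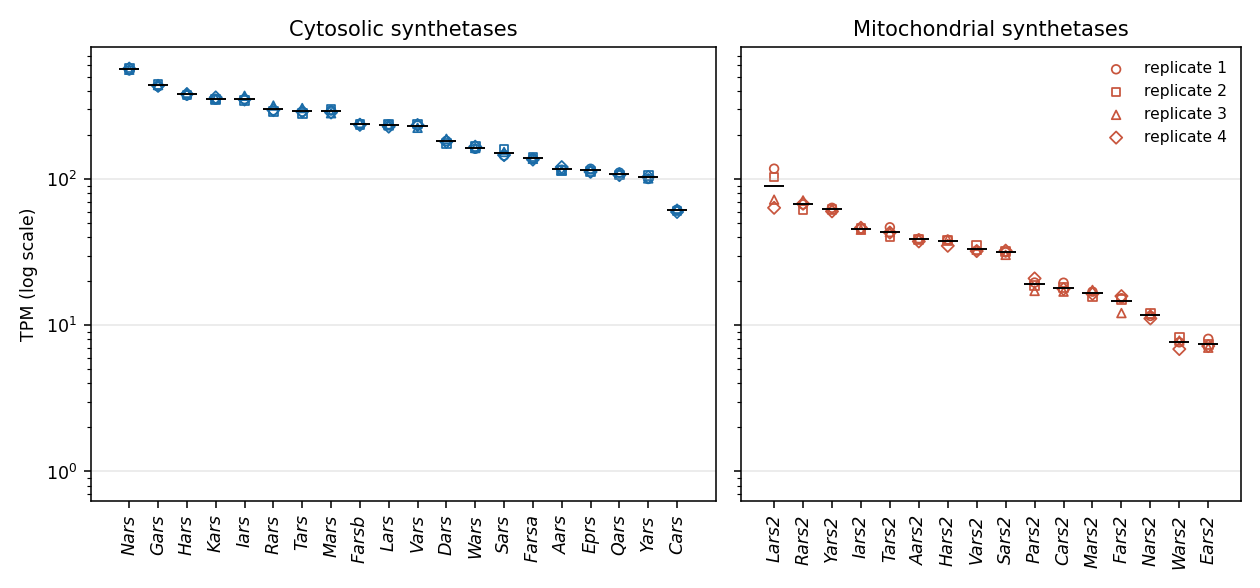
TPM (log scale) of the 20 cytosolic (left) and 16 mitochondrial (right) synthetases, each open symbol 1 library, the shape giving the replicate and the bar the mean of 4. The cytosolic genes run from 61.1 to 565 TPM and the mitochondrial ones from 7.42 to 89.2 TPM, and Lars2 is the gene whose 4 symbols lie farthest apart.

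The cytosolic set was higher than the mitochondrial set as a whole. The mean of log2(TPM + 1) over members was 7.70 ± 0.01 in the cytosolic and 4.80 ± 0.05 in the mitochondrial set. The difference was 2.84, 2.89, 2.96 and 2.94 in replicates 1 to 4, a mean of 2.91 ± 0.05, or 7.50-fold, with the same direction in 4 of 4 libraries. Summed over members, the cytosolic enzymes gave 4814 ± 38.9 TPM and the mitochondrial ones 544 ± 29.8. For comparison, the 5 cytosolic elongation factors exceeded the 4 mitochondrial ones by 4.93 ± 0.04 on the same log2 scale, so both parts of the translation machinery stood higher in their cytosolic form.

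Synthetases fall into structural classes, I and II, by the fold of their catalytic domain. Class I genes were lower than class II genes in the cytosolic set, by a difference in mean log2(TPM + 1) of -0.55 ± 0.01, and lower in 4 of 4 libraries. That SD is over libraries, and the genes of the classes overlapped, with means of 61.1 to 354 TPM in class I and 116 to 565 in class II. In the mitochondrial set the difference was 0.14 ± 0.06, with class I higher in 4 of 4. With the exons of all isoforms as the length, that direction rests on Lars2, a class I gene. Without it, an alternative chosen after seeing the data, the difference was -0.056 ± 0.038 and class I was lower in 4 of 4. With each gene's length taken from its longest annotated protein-coding transcript in place of the exons of all isoforms, the cytosolic and mitochondrial differences with all members became -0.33 ± 0.01 and 0.44 ± 0.06, the latter 0.15 ± 0.04 without Lars2. Eprs holds a domain of each class and was counted in class I.

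Each mitochondrial enzyme was set against the cytosolic enzyme for the same amino acid, 17 pairs for the 16 mitochondrial genes, since cytosolic phenylalanine charging needs both Farsa and Farsb. The cytosolic gene was higher in every library in 17 of 17 pairs. With 4 libraries an exact sign-flip test, two-sided, cannot give a p below 0.125, and every pair was at 0.125, also after Benjamini-Hochberg adjustment over the 17 pairs. The fold between the members of a pair ranged from 1.66 to 48.4, with a median of 7.003.

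The widest gap was that of asparagine, where Nars exceeded Nars2 by 48.4 ± 1.94-fold. Wars stood 21.6 ± 1.80-fold over Wars2, Mars 17.5 ± 1.23-fold over Mars2, Farsb 16.5 ± 2.32-fold over Fars2 and Eprs 15.5 ± 0.840-fold over Ears2. Hars was 10.2 ± 0.520-fold over Hars2 and Farsa 9.60 ± 1.21-fold over Fars2. The wide gaps thus included the mitochondrial genes with the lowest levels, Ears2, Wars2 and Nars2. Iars, Vars and Tars were 7.73 ± 0.355, 7.003 ± 0.263 and 6.72 ± 0.389-fold over their mitochondrial counterparts, and Eprs 6.04 ± 0.584-fold over Pars2. Sars was 4.78 ± 0.277, Rars 4.47 ± 0.139, Cars 3.39 ± 0.221 and Aars 3.01 ± 0.142-fold higher. The narrowest pair was tyrosine, where Yars was at 100.2, 106, 101.1 and 103 TPM and Yars2 at 63.6, 61.7, 62.6 and 60.1, a fold of 1.66 ± 0.073. Lars was at 237, 235, 233 and 228 TPM, and over Lars2 its fold was 2.01, 2.28, 3.22 and 3.59 in replicates 1 to 4, so this pair alone changed by more than 1.5 times between libraries through the change in Lars2.

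**Figure D2:**
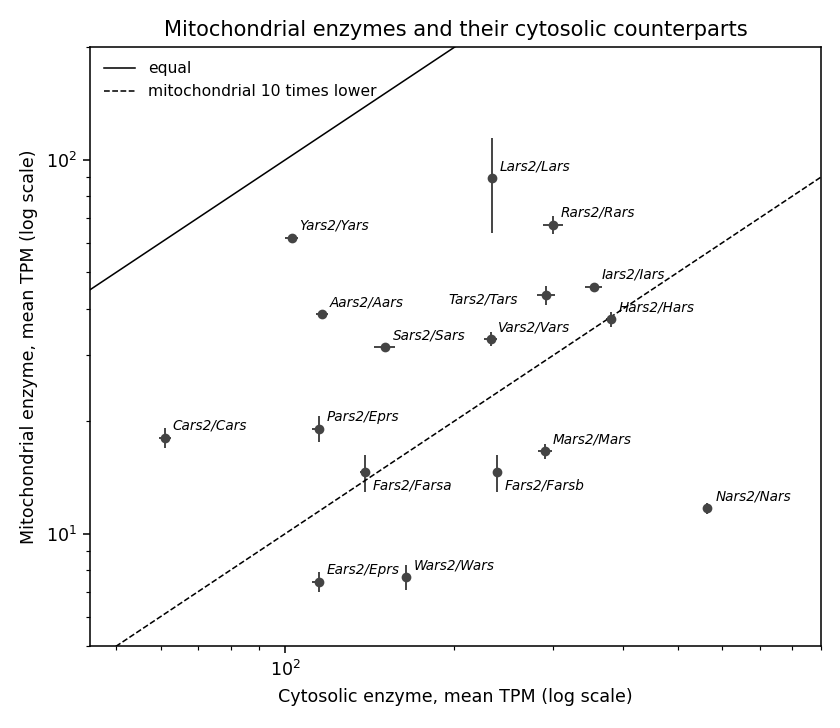
Mean TPM of each mitochondrial synthetase (vertical, log scale) against its cytosolic counterpart (horizontal, log scale), with bars of 1 SD over 4 libraries. All 17 points lie below the line of equality, Yars2 nearest to it at 1.66-fold and Nars2 farthest at 48.4-fold.

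These levels depend on the length a count is divided by, because the exons of all isoforms can be much longer than the transcript in use. With the longest coding transcript instead, protein-coding genes at 1 TPM or more shifted by a median of -0.15 on the log2 scale and the cytosolic and mitochondrial synthetases by 0.01 and 0.03. Single genes moved far more. Eprs, whose exons sum to 18102 bp against 4906 bp in its longest coding transcript, went from 115 to 305 TPM and from place 17 to place 5 of the cytosolic order. Tars went from 291 to 138 TPM and from place 7 to place 18, Farsa from 138 to 248 TPM and Qars from 109 to 184 TPM. The lengths come from different annotation releases, the counted exons from GENCODE M13 and the longest coding transcript from GENCODE M21. That transcript of Tars, 4005 bp, exceeds its 2636 bp of counted exons, so its drop mixes the releases with the choice of length. In Lars and Nars that transcript was also the longer, at 3980 against 3856 bp and 2745 against 2632 bp. Kars, at 522 ± 8.13 TPM, then led the cytosolic order, ahead of Gars at 413 ± 5.16 and Nars at 391 ± 6.47. In the mitochondrial set Cars2 went from 18.1 to 49.6 TPM, Lars2 from 89.2 to 183, Ears2 from 7.42 to 13.5 and Tars2 from 43.4 to 67.3. Nars and Gars were among the 3 highest cytosolic genes with both lengths, and Lars2 and Rars2 kept places 1 and 2 of the mitochondrial order.

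With that length 16 of 17 pairs kept the cytosolic gene higher in every library, and the exception was leucine. The fold of Lars over Lars2 became 0.683, 0.776, 1.10 and 1.22 in replicates 1 to 4, so that Lars2 was the higher gene in replicates 1 and 2 and the lower in replicates 3 and 4. Several other folds moved by over 1.5 times. Nars over Nars2 became 25.1 ± 1.01, Tars over Tars2 2.06 ± 0.119, Cars over Cars2 1.82 ± 0.119, and Aars over Aars2 4.87 ± 0.229. The folds of Tars, Nars and Lars also carry the difference between annotation releases. Yars over Yars2 became 3.02 ± 0.133, Eprs over Pars2 21.9 ± 2.12, and Farsa over Fars2 23.9 ± 3.02. Cars and Cars2 were then the narrowest pair with 1 direction in every library. The difference between the cytosolic and mitochondrial sets was 2.86 ± 0.05 with that length.

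**Figure D3:**
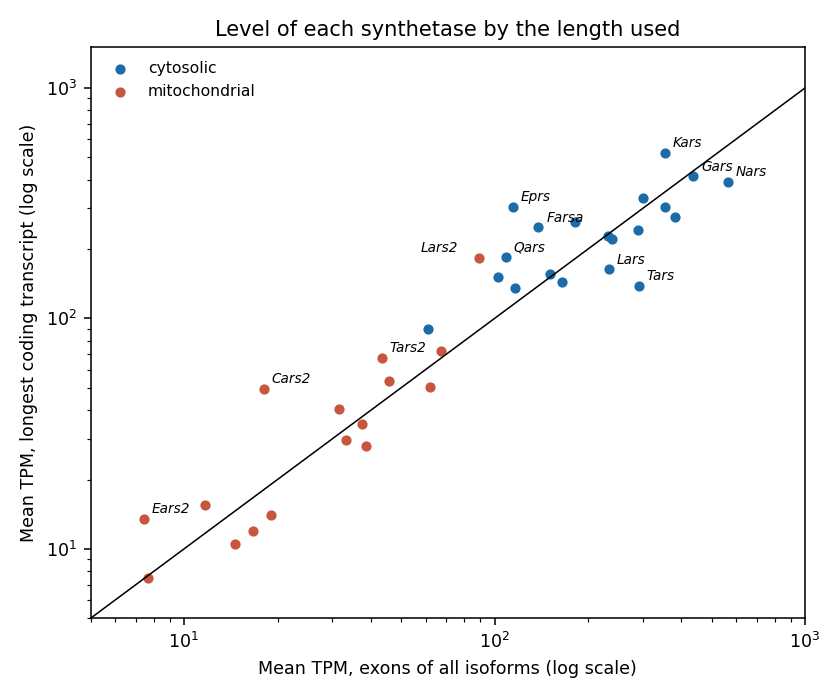
Mean TPM of each synthetase computed with the length of its longest coding transcript (vertical, log scale) against that with the exons of all isoforms (horizontal, log scale), with the line of equality. Names mark genes that moved by over 1.5 times and Nars, Gars, Kars and Lars; Eprs, Cars2 and Lars2 lie above the line and Tars, at 291 against 138 TPM, below it.

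The multi-tRNA synthetase complex holds Dars, Eprs, Iars, Kars, Lars, Mars, Qars and Rars. These 8 were higher than the 12 free cytosolic genes by 0.15 ± 0.03 in mean log2(TPM + 1), in 4 of 4 libraries, a difference of 1.11-fold that is small beside the 3.26-fold range among the 8 themselves. With the longest coding transcript it was 0.48, and as a difference of medians 0.41. Relative to the median of the 8 enzymes in each library, Eprs was at 0.440 ± 0.010 and Qars at 0.417 ± 0.011, against 1.36 ± 0.042 for Kars and 1.36 ± 0.060 for Iars. With the longest coding transcript Eprs was at 1.08 ± 0.020 and Qars at 0.653 ± 0.009 of that median, so the low place of Eprs turned with the length. Among the scaffolds, Eef1e1 was at 672, 689, 677 and 683 TPM, Aimp2 at 189, 188, 178 and 185, and Aimp1 at 61.0, 66.4, 66.4 and 62.8. Eef1e1 was at 2.61 ± 0.055 and Aimp1 at 0.246 ± 0.012 of the enzymes' median, and with the longest coding transcript at 0.704 ± 0.025 and 0.817 ± 0.040, while Aimp2 was at 0.710 ± 0.014 and 0.662 ± 0.034. The longest coding transcript of Eef1e1, 2553 bp, exceeds its 1032 bp of counted exons, so its drop also mixes annotation releases.

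Cytosolic phenylalanyl-tRNA synthetase is a tetramer of equal numbers of Farsa and Farsb chains. Farsa was at 139, 141, 138 and 136 TPM and Farsb at 239, 237, 242 and 235, and the groups did not overlap. The ratio of Farsa to Farsb was 0.582 ± 0.011, with 0.569 and 0.596 as its lowest and highest values (exact two-sided sign-flip p = 0.125, the smallest possible). With the longest coding transcript the ratio was 1.12 ± 0.022, at the same exact p, so its direction turned with the length. The ratio of their raw fragments was 1.01 ± 0.020. Which subunit had more transcripts could therefore not be settled from these counts.

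The spread between replicates was small for most synthetases. The coefficient of variation of TPM had a median of 2.38% in the cytosolic set, from 1.23% for Gars to 4.32% for Sars, and of 5.15% in the mitochondrial set, from 1.33% for Iars2 to 28.6% for Lars2. Over 9761 protein-coding genes at 1 TPM or more in every library the median was 4.32%. Each gene's spread was also set against that of genes of the same abundance with edgeR's quasi-likelihood fit. It gives a ratio of the gene's residual variance over the trend, on the variance and not the SD scale, and an F test of its excess. Of 11847 genes tested, 0.304% were called more variable at a Benjamini-Hochberg adjusted p under 0.05 and 5.69% had an unadjusted p under 0.05. Of the synthetases, 1 of 36 was called and 1 of 36 had an unadjusted p under 0.05, the same gene. The ratio had a median of 0.684 in the cytosolic set and 0.983 in the mitochondrial set, beside 0.804 over all genes tested. After the called gene, the smallest unadjusted p were 0.0729 for Sars and 0.0901 for Tars2, whose adjusted p were 0.940 and 0.951.

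The called gene was Lars2 (ENSMUSG00000035202.8, chr9:123366927-123462666, plus strand, mm10). The residual variance of its fragments was 92.1 times the trend (edgeR adjusted p = 4.14e-10), and it took place 4 of all genes tested, after Xist, Ddx3y and Eif2s3y. It was high in replicates 1 and 2 and low in replicates 3 and 4, and no value of one pair reached the other. The same libraries differed in Xist and Ddx3y as given above, and the part of that difference in the Lars2 result was not tested. Across 8 alternatives its adjusted p lay between 2.84e-15 and 4.69e-06, and it was called in each. The number of genes called in all was 17 with a prior without robust estimation and 15 without replicate 4, in place of 36. Without Lars2, the cytosolic minus mitochondrial difference was 3.02 ± 0.03, and the summed mitochondrial level 454 ± 6.41 TPM.

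Values that bear on Lars2 were looked at around it. Genes next to it on chromosome 9 were steadier, with coefficients of variation of 1.63% for Limd1, 3.19% for Sacm1l, 3.57% for Exosc7, 3.90% for Zdhhc3 and 4.58% for Lztfl1. Tmem158 had 24.7% at a level of 2.16 TPM, and at 1.61, 1.83, 2.78 and 2.41 TPM it was higher in replicates 3 and 4. Only 0.196% of the 50-base words of Lars2, read on either strand, occur in other annotated transcripts. The rRNA-like transcripts Gm42418, at 1052, 1014, 891 and 1054 TPM, and Gm26917, at 120.2, 131, 120.4 and 129 TPM, did not follow the order of Lars2 over the replicates. The cytosolic leucine enzyme Lars varied by 1.55%. The word search covered annotated transcripts only, and the cause of the Lars2 difference between replicates was not tested.

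**Figure D4:**
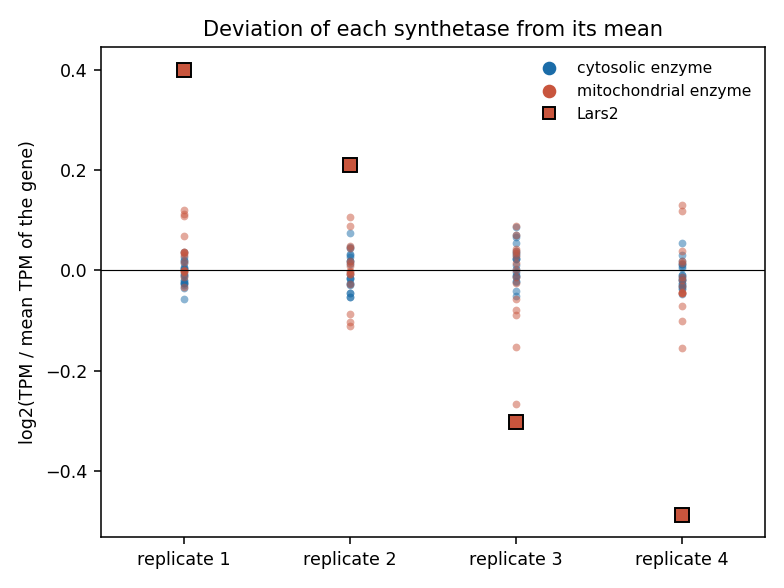
Deviation of each synthetase from its own mean, log2(TPM over mean TPM), in each of 4 replicates, with cytosolic genes in blue, mitochondrial genes in red and Lars2 as a square. Lars2 lies above all others in replicates 1 and 2 (118 and 103 TPM) and below all others in replicates 3 and 4 (72.3 and 63.6 TPM).

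Some members share sequence or place with other genes, which can limit how their fragments were assigned. Of the 36, 8 share over 5% of their 50-base words, read on either strand, with annotated transcripts of other genes. The same share over all genes was not computed. Fragments were counted with strand option 2, and words shared only with the opposite strand were not set apart. The highest shares were 22.7% for Iars2, mostly with Rab3gap2, 13.8% for Aars, mostly with Exosc6, and 8.85% for Fars2, mostly with Nrn1. Aars was the only member whose exons overlap another gene's on the same strand, over 14.3% of their length with Exosc6. Hars and Hars2 are transcribed away from each other and overlap by 198 bp, and 5.95% of the words of Hars were shared, nearly all with Hars2. Eprs and Iars2 lie 33.6 kb apart on chromosome 1.

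Promoter sequences were available for 27 of the 36 genes, 13 cytosolic and 14 mitochondrial, as 250 bases before to 50 bases after a start site from RefSeq (GRCm38.p6, the mm10 assembly). Those not covered were Cars, Hars, Lars, Nars, Rars, Vars, Wars, Hars2 and Pars2. They were searched on both strands for the amino acid response element in the form TGATGNAA, the letters bound by Atf4 with C/EBP factors, which is known to drive synthetase genes when amino acids are short. It was in 5 of 13 cytosolic promoters, those of Aars, Gars, Iars, Tars and Yars, and in 0 of 14 mitochondrial ones. All 27025 genes with a promoter held it in 4.51% and the 7859 of them that are protein coding and reached 1 TPM in every library in 2.58%. The narrower TGATGCAA, contained in the first form, was in Aars, Iars, Tars and Yars and in 1.03% of all genes and 0.674% of the detected protein-coding ones. The promoters that hold the motif are shown because all 5 belong to cytosolic genes; the difference between the sets was not tested. They run 5′ to 3′ on the strand of the gene, with the matches in capitals.
Aars, chr8:111033592-111033891 (+): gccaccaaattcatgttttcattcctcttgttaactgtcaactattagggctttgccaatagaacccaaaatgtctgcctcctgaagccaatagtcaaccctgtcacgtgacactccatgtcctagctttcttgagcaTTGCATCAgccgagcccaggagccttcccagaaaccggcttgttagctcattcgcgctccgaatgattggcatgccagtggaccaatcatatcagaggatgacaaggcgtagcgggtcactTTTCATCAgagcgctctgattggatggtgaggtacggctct
Gars, chr6:55037751-55038050 (+): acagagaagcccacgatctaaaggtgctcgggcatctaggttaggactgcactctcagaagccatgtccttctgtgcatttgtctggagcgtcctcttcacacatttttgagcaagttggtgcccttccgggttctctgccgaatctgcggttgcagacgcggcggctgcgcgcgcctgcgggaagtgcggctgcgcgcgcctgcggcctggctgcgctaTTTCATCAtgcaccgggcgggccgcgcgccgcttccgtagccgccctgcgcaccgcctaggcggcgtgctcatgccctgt
Iars, chr13:49681880-49682179 (+): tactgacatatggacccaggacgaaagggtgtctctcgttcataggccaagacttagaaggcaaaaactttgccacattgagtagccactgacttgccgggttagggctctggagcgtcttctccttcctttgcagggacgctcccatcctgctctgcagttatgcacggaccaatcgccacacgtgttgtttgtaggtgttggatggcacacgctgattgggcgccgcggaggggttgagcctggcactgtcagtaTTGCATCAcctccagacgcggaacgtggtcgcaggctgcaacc
Tars, chr15:11399609-11399908 (-): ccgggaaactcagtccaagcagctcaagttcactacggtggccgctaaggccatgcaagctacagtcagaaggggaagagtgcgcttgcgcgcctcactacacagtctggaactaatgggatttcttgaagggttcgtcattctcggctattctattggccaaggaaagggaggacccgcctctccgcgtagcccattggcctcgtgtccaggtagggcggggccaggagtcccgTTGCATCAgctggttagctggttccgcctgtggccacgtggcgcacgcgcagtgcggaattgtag
Yars, chr4:129189653-129189952 (+): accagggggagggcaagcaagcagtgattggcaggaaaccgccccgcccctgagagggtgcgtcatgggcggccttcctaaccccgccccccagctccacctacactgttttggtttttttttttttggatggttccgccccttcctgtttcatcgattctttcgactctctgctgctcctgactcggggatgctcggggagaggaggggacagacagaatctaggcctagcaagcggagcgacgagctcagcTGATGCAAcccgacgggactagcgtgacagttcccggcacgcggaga
The matches began at -112 and 9 from the start site in Aars, -30 in Gars, 7 in Iars, -15 in Tars and 3 in Yars, with the start base as 0. The genes with a match spanned the cytosolic order, from Gars at 437 TPM, Iars at 354 and Tars at 291 to Aars at 116 and Yars at 103. A match is a string of letters and not evidence of binding, and promoters without one say only that these letters are not in this window.

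The 4 other motifs reported here were searched in the same way. The E-box CACGTG, bound by Myc and related factors, was in 4 of 13 cytosolic promoters, Aars, Farsb, Iars and Tars, and in 1 of 14 mitochondrial ones, Ears2, against 8.09% of all genes and 12.6% of the detected protein-coding ones. The GC box GGGCGG was in 8 of 13 and 11 of 14, against 38.2% of all genes and 71.4% of the detected protein-coding ones. The ETS form CCGGAAGT was in Farsa, Mars and Rars2, against 4.31% of all genes and 11.0% of the detected protein-coding ones, and the cyclic AMP element TGACGTCA was in none of the 27 against 2.03% and 4.00%.

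The other genes around tRNA charging were taken from 8 lists of 50 genes. Atf4, the factor of the amino acid response, was at 893, 919, 949 and 936 TPM, above every synthetase. Of the 15 genes of that response 12 reached 1 TPM and 5 reached 100 TPM in every library, against 44.8% and 8.72% of protein-coding genes. The median of the 15 was 21.7 TPM. Nupr1 had 0 fragments in each library, which at a floor of 3 fragments allows up to 0.163 TPM in the shallowest library. The mitochondrial charging partners, which complete or modify charged tRNA in the organelle, had a median of 23.5 TPM, and the highest was Gatc, a subunit of the amidotransferase that makes glutaminyl-tRNA, at 55.5 ± 1.38 TPM. The trans-editing and synthetase-like genes, most of which clear wrongly charged tRNA, had a median of 11.6 TPM, from Aarsd1 at 4.30 ± 0.320 to the D-aminoacyl-tRNA deacylase Dtd1 at 53.8 ± 1.24. The 4 selenocysteine genes ranged from the kinase Pstk at 4.75 ± 0.590 to the elongation factor Eefsec at 55.4 ± 2.26 TPM. The 10 tRNA maturation and export genes had a median of 138 TPM, and the highest was the La protein Ssb at 689 ± 25.5 TPM. Elongation factors ran from Eef1d at 291 ± 8.49 to Eef1a1, which delivers charged tRNA to the ribosome, at 15676 ± 825 TPM in the cytosol. Their mitochondrial counterparts ran from Gfm2 at 19.3 ± 0.718 to Tufm at 207 ± 4.44 TPM. Of the 50 genes 47 were tested for variability and 0 were called by edgeR, against 0.304% of all 11847 genes tested. An unadjusted p under 0.05 was found for 2 of the 47, Eef1a1 and Asns, against 5.69% of all genes tested. Their edgeR adjusted p were 0.0733 and 0.763.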

How the data were processed

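RNA of mouse T-helper 17 cells was measured in 4 libraries of 24696730 to 37025016 fragments. Per the file headers, the authors made counts of fragments per gene with featureCounts 1.4.6-p4 over exons of GENCODE M13, both ends aligned, strand option 2, on mm10 per the labels. For the aligner, a version is not given in the sources here. The headers do not state how multi-mapping fragments, or fragments over several genes, were treated. The summed exon length of each gene is also deposited. Symbols and the lengths of the longest coding transcripts came from GENCODE M21, which 50376 of 50600 genes matched.

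From these, TPM was computed, and log2(TPM + 1) for differences between sets, with a pseudocount of 1, which understates folds of low genes. Folds of single pairs are ratios of TPM. Single pairs and the subunit ratio were tested with exact two-sided sign flips of the 4 libraries. Variability used edgeR 4.0.16 in R 4.3.3 (TMM, filterByExpr, intercept only, robust prior with 24.8 degrees of freedom) on the counts as deposited, tested on simulated data first. Alternatives were another pseudocount, no length, the longest coding transcript, medians, TPM without mitochondrial-chromosome and ribosomal protein genes, other thresholds, DESeq2 1.42.0 size factors, limma 3.58.1, no filter, a prior without robust estimation, and each replicate left out. Other work used Python 3.11.15 (scipy 1.17.1, pandas 2.3.3, numpy 2.4.6, matplotlib 3.10.9).

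The members and lists were chosen with earlier results of these data known, and the motifs after the levels were seen; further motifs looked at are not reported. All 36 members are named, and of the other lists the highest and lowest gene and any called by the variability test, except some that are not reported here. Other genes named were chosen after their values were seen.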

Additional observations from a re-analysis of the deposited data

How the results depend on the processing

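Of the 17 pairs, 68 of 68 values with a replicate left out kept their direction. The log2 ratio of Lars over Lars2 turned from 1.43 to -0.092 with no length and -0.124 with the longest coding transcript. The ratio of Farsa to Farsb turned from 0.582 to 1.12 with the latter. Both settings change the length used, and the longest coding transcript also comes from another annotation release. Enzymes below their counterpart then numbered 15 of 16, and 16 with any replicate left out. The cytosolic minus mitochondrial difference of 2.91 was 2.96 with a pseudocount of 0.1, 2.74 with no length, 2.81 as medians, 3.02 without Lars2 (chosen after seeing the data), and 2.89 to 2.93 with a replicate left out. The mitochondrial class I minus class II difference of 0.14 was -0.056 without Lars2. With the longest coding transcript it was 0.44, and 0.15 without Lars2. The complex minus free difference of 0.15 was 0.52 with no length, 0.48 with the longest coding transcript, 0.41 as medians, and 0.15 to 0.16 with a replicate left out. Members detected fell from 36 to 19 at 100 TPM. The ratio of Farsa to Farsb ran from 0.577 to 0.586 with a replicate left out. Genes called variable numbered 36, and 17 with a prior without robust estimation. With replicates 1 to 4 left out in turn they numbered 31, 30, 37 and 15, each fit using the same number of libraries. The cause of the low number without replicate 4 was not tested. Other settings gave 39 to 50, and Lars2 was called in all 8. Depth limited no statement on detection, while 4 libraries limit every pair to an exact p of 0.125. Samples could not be paired between conditions because there is only 1 group, and the sign-flip tests paired genes within each library.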
